A study of Mus musculus with 6 samples.

Results

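The genes described here are 32 mouse genes of the ATF4 stress response and of amino acid supply, listed by name for their known roles. The list was chosen with earlier results of these data known. All 32 were found among the 51912 gene IDs of the deposited table, and 31 had the mean of at least 1 TPM that was required for testing, out of 9287 such genes. Slc7a3 stayed below that level. The 6 bulk RNA libraries come from bladder tumor organoids, 3-dimensional cultures of tumor cells, of C57BL/6 mice. The treated group is 3 libraries of organoids given SRT1720, a compound developed to activate the protein deacetylase SIRT1, and the other group is 3 libraries of organoids given vehicle. The labels state neither dose nor duration, nor whether replicates are separate cultures or animals, so p-values cover only the spread between these libraries. The genotype of the tumors and the way they arose are not stated there either. TPM here is the unit that the deposited table names, a level per gene length and library depth. By an estimate from reads recovered from the values, 1 read on a gene of 1 kb was worth 0.017 to 0.0212 TPM.

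ATF4 is a basic leucine zipper transcription factor whose mRNA is translated more when the initiation factor eIF2 is phosphorylated. The kinases that phosphorylate eIF2 sense amino acid shortage, misfolded protein in the endoplasmic reticulum, double-stranded RNA, or lack of heme together with mitochondrial stress. ATF4 then activates genes that import amino acids, make asparagine, serine, glycine and cysteine, and restrain growth signalling, and in prolonged stress it acts with CHOP, the product of Ddit3. The mRNA levels below do not show the amount of ATF4 protein or the phosphorylation of eIF2.

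ATF4 binds DNA together with C/EBP proteins at an element whose core is TGATGNAA. Of the 32 genes, 27 had a promoter window in the RefSeq table for GRCm38.p6, which runs from 250 bases before the start site to 50 bases from it on, and Slc7a5, Slc7a3, Slc1a5, Aldh1l2 and Cth had none. On either strand, 8 of the 27 held the core (29.6%), against 1219 of 27025 genes with a window (4.51%). Counted by window, 1304 of 32851 held it (3.97%). The 8 windows are shown because they hold these letters. Each is written 5′ to 3′ on the strand of its gene, base 251 is the start site, and capitals mark TGATGNAA or its reverse complement TTNCATCA.
Trib3 (chr2:152344011-152344310, minus strand): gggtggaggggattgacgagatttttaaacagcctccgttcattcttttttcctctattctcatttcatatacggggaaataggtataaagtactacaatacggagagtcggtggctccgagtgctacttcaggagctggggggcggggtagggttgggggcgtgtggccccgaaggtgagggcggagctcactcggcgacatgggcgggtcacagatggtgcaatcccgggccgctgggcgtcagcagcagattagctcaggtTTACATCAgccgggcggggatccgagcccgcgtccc
Asns (chr6:7693160-7693459, minus strand): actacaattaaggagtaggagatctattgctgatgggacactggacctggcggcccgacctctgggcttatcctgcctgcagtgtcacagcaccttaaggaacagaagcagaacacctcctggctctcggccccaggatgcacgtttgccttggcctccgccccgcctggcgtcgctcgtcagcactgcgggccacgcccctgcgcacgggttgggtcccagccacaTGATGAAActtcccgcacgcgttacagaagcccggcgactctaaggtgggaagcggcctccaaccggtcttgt
Chac1 (chr2:119350992-119351291, plus strand): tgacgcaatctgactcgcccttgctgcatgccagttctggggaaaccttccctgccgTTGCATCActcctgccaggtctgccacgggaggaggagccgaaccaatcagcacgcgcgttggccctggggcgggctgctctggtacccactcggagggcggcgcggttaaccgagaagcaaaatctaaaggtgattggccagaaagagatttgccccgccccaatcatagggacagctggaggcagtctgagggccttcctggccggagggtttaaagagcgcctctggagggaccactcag
Atf3 (chr1:191183284-191183583, minus strand): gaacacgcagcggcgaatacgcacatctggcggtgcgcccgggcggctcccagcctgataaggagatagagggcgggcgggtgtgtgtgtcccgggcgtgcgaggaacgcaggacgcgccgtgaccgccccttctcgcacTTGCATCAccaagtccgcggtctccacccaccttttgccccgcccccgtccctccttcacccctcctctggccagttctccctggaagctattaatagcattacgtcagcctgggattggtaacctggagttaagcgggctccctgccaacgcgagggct
Slc7a11 (chr3:50443564-50443863, minus strand): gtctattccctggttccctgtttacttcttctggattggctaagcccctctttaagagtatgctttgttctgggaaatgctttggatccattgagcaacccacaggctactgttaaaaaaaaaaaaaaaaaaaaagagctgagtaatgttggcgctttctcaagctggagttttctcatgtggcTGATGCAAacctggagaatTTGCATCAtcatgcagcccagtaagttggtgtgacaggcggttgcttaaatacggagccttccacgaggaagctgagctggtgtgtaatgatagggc
Slc1a4 (chr11:20332664-20332963, minus strand): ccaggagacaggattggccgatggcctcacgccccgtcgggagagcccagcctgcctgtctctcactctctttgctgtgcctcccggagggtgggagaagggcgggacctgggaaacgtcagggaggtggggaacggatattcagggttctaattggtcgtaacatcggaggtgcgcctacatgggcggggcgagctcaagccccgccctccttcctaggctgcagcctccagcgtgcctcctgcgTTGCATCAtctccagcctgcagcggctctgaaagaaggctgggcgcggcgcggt
Pck2 (chr14:55540016-55540315, plus strand): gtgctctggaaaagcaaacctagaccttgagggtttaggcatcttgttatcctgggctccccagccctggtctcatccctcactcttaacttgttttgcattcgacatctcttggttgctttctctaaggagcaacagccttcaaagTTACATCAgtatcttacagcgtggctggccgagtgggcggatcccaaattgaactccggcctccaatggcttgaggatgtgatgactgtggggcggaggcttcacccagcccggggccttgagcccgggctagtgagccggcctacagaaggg
Nupr1 (chr7:126625421-126625720, minus strand): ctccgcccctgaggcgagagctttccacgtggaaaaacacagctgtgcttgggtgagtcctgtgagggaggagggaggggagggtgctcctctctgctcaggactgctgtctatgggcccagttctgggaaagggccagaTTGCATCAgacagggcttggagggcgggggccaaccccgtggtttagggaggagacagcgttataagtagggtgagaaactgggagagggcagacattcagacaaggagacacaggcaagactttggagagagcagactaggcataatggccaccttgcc

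The matches began at base 228 of the window in Asns, base 58 in Chac1, base 141 in both Atf3 and Nupr1, base 148 in Pck2, base 247 in Slc1a4 and base 265 in Trib3. Slc7a11, a cystine importer gene, held 2 of them, at bases 185 and 204, on opposite strands. Asns and the first of the Slc7a11 matches read TGATGNAA on the gene's own strand, and the others read it on the opposite strand. A match says only that these letters are in the window. The genes with a match had log2 fold changes (SRT1720 minus Vehicle) from −1.62 to 0.26 with a median of −0.60, and the 19 tested genes with a window and no match ran from −1.54 to 0.08 with a median of −0.49.

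No gene of the list passed the test between SRT1720 and Vehicle, while nearly all had a lower mean log2 level in the SRT1720 libraries. By limma on log2(TPM + 1) with Benjamini-Hochberg adjustment over all 9287 genes, 0 of 31 were called, and over all genes 0% were called. At an unadjusted p under 0.05 there was 1 of 31 on the lower side, where 4.55% of all genes lay, and 0 of 31 on the higher side, where 7.86% lay. Voom on reads recovered from the values also called 0 of 31, and 0% of all genes. Log2 fold changes were below 0 in 29 of 31, against 45.2% of all genes tested, with a median of −0.45 against 0.04 over all genes. The 3 SRT1720 libraries lay wholly below the 3 Vehicle libraries in 1 of 31, where 7.75% of all genes did so, and wholly above in 0 of 31, where 12.1% did. The adjusted p ran from 0.353 to 0.966, and the 95% interval of the difference held −1, a halving, in 28 of the 31.

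The 6 libraries stood in much the same order from gene to gene. Vehicle 2 was the highest library in 17 of 31 genes and SRT1720 1 in 10, against 18.8% and 23.1% of all genes tested. SRT1720 3 was the lowest in 24 of 31, against 18.6% of all genes. SRT1720 3 and Vehicle 3 were each the lowest library of their own group in 28 of 31 genes. Over all genes, SRT1720 3 lay below SRT1720 2 in 58.4% and Vehicle 3 below Vehicle 2 in 52.3%. Being lowest of the group cannot be more frequent over all genes than that. The summed mitochondrial ribosomal RNA was 139, 198 and 702 TPM in SRT1720 1, 2 and 3, against 176, 135 and 1562 TPM in Vehicle 1, 2 and 3. It was thus highest in SRT1720 3 and Vehicle 3, and its part in the levels of the list was not tested. SRT1720 1 exceeded both other SRT1720 libraries in all 31 genes, as it did in 45.2% of all genes. SRT1720 2 and SRT1720 3 both lay below Vehicle 1 in 31 of 31 genes and below Vehicle 2 in 30 of 31, and each of these orders was seen in 39.3% of all genes. Measured from each gene's own mean over the 6 libraries, the median deviation of the list was 0.79, −0.55 and −1.06 (log2) in SRT1720 1, 2 and 3, against 0.42, 0.93 and −0.45 in Vehicle 1, 2 and 3. The same median over all genes tested lay between −0.05 and 0.07 in every library. Scaling by depth keeps that median near 0, so it cannot show whether other genes share the order of the list. SRT1720 1 and Vehicle 2 were the 2 highest libraries in 20 of 31 genes, and in 16.2% of all genes tested. The ratio of the highest to the lowest library had a median of 5.76 over the list and 1.98 over the 9257 tested genes above 0 in all libraries.

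**Figure D1:**
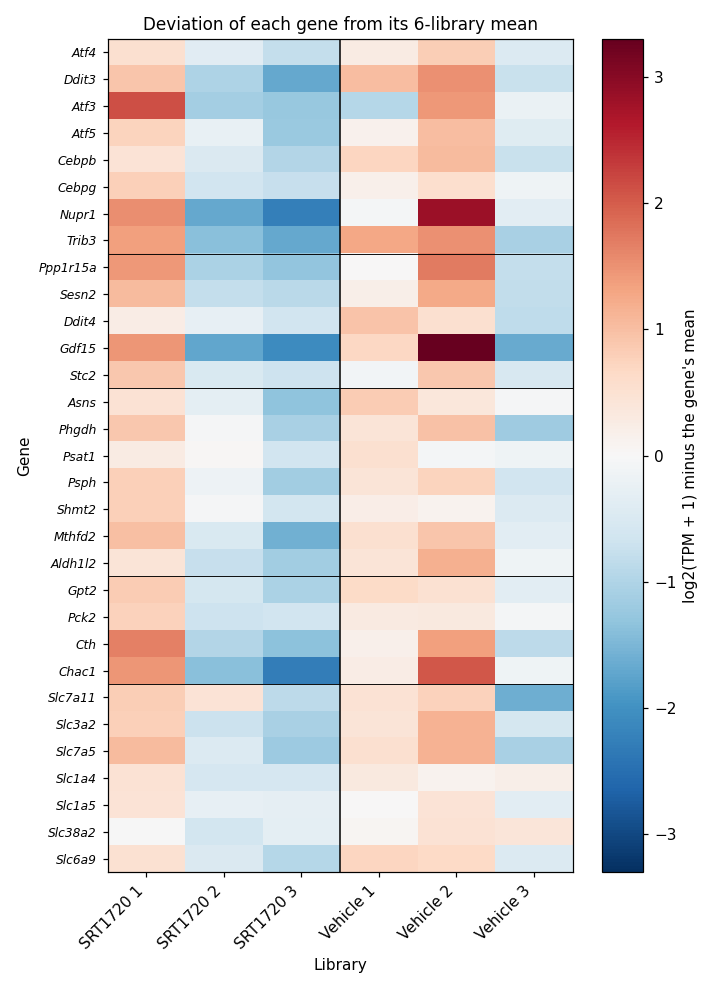
Deviation of each of the 31 tested genes (rows, by role) from its own mean over 6 libraries, in log2(TPM + 1), with the SRT1720 libraries left of the Vehicle libraries. SRT1720 1, Vehicle 1 and Vehicle 2 are mostly above each gene's mean, with list medians of 0.79, 0.42 and 0.93, and SRT1720 2, SRT1720 3 and Vehicle 3 mostly below, at −0.55, −1.06 and −0.45.

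**Figure D2:**
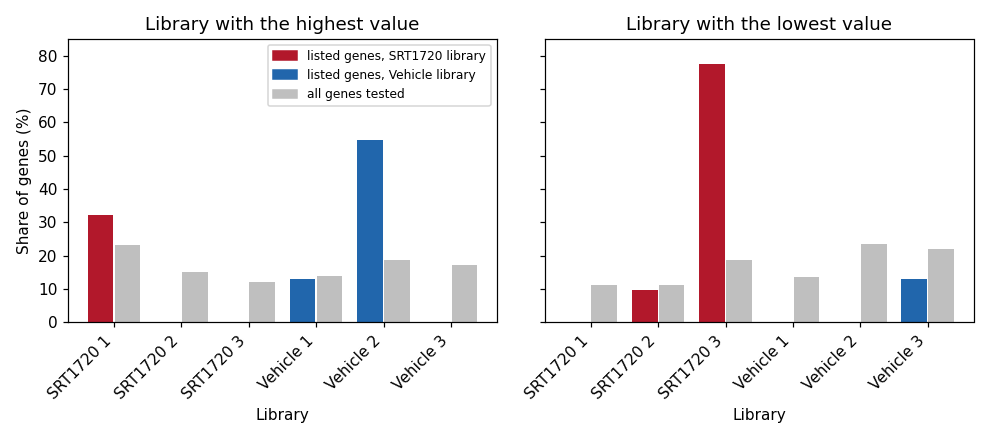
Share (%) of the 31 tested genes of the list (coloured bars) and of all 9287 genes tested (grey bars) in which each library has the highest (left) or the lowest value (right). Vehicle 2 is highest for 54.8% of the list and SRT1720 3 lowest for 77.4%, against 18.8% and 18.6% of all genes.

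The pair of libraries most often highest also stood apart in keratins of the urothelium. Krt5, which marks basal cells, had 16.4, 616 and 1120.1 TPM in SRT1720 1, 2 and 3, against 425, 9.61 and 741 TPM in Vehicle 1, 2 and 3. The summed level of the 5 basal markers was 64.9 to 1894 TPM in SRT1720 libraries, against 48.0 to 1098 TPM in Vehicle libraries, and SRT1720 1 and Vehicle 2 held the lowest sums. The 9 luminal markers, 4 of which reached a mean of 1 TPM, summed to 88.0 to 329 TPM in SRT1720 libraries, against 66.0 to 217 TPM in Vehicle libraries, and the sum was highest in SRT1720 1 and Vehicle 2. That sum was mostly the keratins Krt18 and Krt8, and the single luminal markers did not share 1 order. Krt18 had 226, 57.6 and 25.3 TPM in SRT1720 1, 2 and 3, against 48.0, 162 and 29.2 TPM in Vehicle 1, 2 and 3, while Krt8 had 98.3, 20.03 and 54.5 TPM in SRT1720 1, 2 and 3, against 10.8, 50.6 and 43.9 TPM in Vehicle 1, 2 and 3. Gata3, a luminal transcription factor, was highest in Vehicle 1, at 3.71 TPM. Uroplakins define differentiated urothelium. Upk1b was lowest in SRT1720 1 and Vehicle 2, with 1.47, 12.1 and 7.11 TPM in SRT1720 1, 2 and 3, against 2.72, 0.660 and 6.81 TPM in Vehicle 1, 2 and 3. Upk1a was at most 0.469 TPM in SRT1720 libraries, against at most 1.34 TPM in Vehicle libraries. Upk2 was not tested, at 0.137 to 0.419 TPM in SRT1720 libraries, against 0.0717 to 0.0783 TPM in Vehicle libraries, without overlap. Its values rested on 4 to 25 recovered reads. Upk3a was at 0 in all 6 libraries. The epithelial gene Epcam was at 69.4 TPM or more in every library. None of 7 fibroblast, 5 endothelial or 5 smooth muscle markers and 3 of 8 leukocyte markers reached a mean of 1 TPM, and the leukocyte markers Ptprc and Cd3e were at or near 0. The leukocyte list summed to 27.8, 20.2 and 2.08 TPM in SRT1720 1, 2 and 3, against 25.03, 16.5 and 4.34 TPM in Vehicle 1, 2 and 3. The 3 members that reached 1 TPM, all myeloid markers, had different orders. Cd14 had 26.5, 8.59 and 1.04 TPM in SRT1720 1, 2 and 3, against 8.97, 14.5 and 1.24 TPM in Vehicle 1, 2 and 3, so it made up nearly all of the sum in SRT1720 1. Lyz2 was at 10.5 TPM in SRT1720 2 and 14.3 TPM in Vehicle 1 and at 0 in the other 4 libraries. Cd68 did not overlap between groups, with 0.730 to 1.31 TPM in SRT1720 libraries, against 1.45 to 3.09 TPM in Vehicle libraries. Its limma adjusted p was 0.359, and 7.75% of all genes were likewise lower without overlap. The fibroblast list summed to at most 2.68 TPM in SRT1720 libraries, against at most 3.98 TPM in Vehicle libraries. The smooth muscle list summed to at most 0.300 TPM in SRT1720 libraries, against 0.163, 0.220 and 4.34 TPM in Vehicle 1, 2 and 3. Acta2 made up nearly all of the sum in Vehicle 3, at 4.26 TPM. The part of the epithelial makeup and of myeloid cells in the differences below was not tested, and fewer cells of a type and less RNA per cell cannot be told apart in bulk samples.

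Among the transcription factors and regulators, all 8 had log2 fold changes below 0, with a median of −0.58, and all 8 overlapped between groups. Atf4 (ENSMUSG00000042406, GRCm38 chromosome 15 from 80255184 to 80257541) was at 133, 70.3 and 52.6 TPM in SRT1720 1, 2 and 3, against 109.8, 160.2 and 66.6 TPM in Vehicle 1, 2 and 3. SRT1720 1 lay above Vehicle 1, and SRT1720 2 and Vehicle 3 lay close together. The mean of Atf4 was 85.3 ± 42.2 TPM with SRT1720 and 112 ± 46.9 TPM with vehicle (SD, n = 3 each), a log2 fold change of −0.41 (SE 0.43, limma adjusted p = 0.761). Ddit3, which encodes the stress factor CHOP, was at 15.5, 3.35 and 1.74 TPM in SRT1720 1, 2 and 3, against 17.0, 24.0 and 4.26 TPM in Vehicle 1, 2 and 3. Its fold change was larger than that of Atf4, at −1.20 (SE 0.81, limma adjusted p = 0.595), and SRT1720 1 lay within the range of the Vehicle libraries. Nupr1, a small stress-induced nuclear protein, was at 26.03, 1.89 and 0.951 TPM in SRT1720 1, 2 and 3, against 7.99, 65.1 and 6.41 TPM in Vehicle 1, 2 and 3. It had the lowest log2 fold change of the list, −1.62, with an SE of 1.20, since its libraries spanned 68.5-fold.

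Trib3, a pseudokinase that restrains ATF4 and CHOP, was at 30.7, 3.79 and 2.84 TPM in SRT1720 1, 2 and 3, against 28.8, 34.0 and 4.94 TPM in Vehicle 1, 2 and 3. In this gene SRT1720 1 stood with Vehicle 1 and Vehicle 2, and the other 3 libraries were several times lower. Atf3, a stress-induced bZIP factor, was at 26.5, 1.90 and 1.64 TPM in SRT1720 1, 2 and 3, against 2.29, 16.1 and 4.40 TPM in Vehicle 1, 2 and 3. Vehicle 1 was low for Atf3, unlike for most of the list, and the log2 fold change of −0.18 (SE 1.02) was the smallest of this group. On the linear scale Atf3 ran the other way: its SRT1720 libraries averaged 10.02 ± 14.3 TPM and its Vehicle libraries 7.61 ± 7.46 TPM (SD, n = 3 each). Cebpb, a bZIP partner of ATF4 in DNA binding, was at 28.8, 14.6 and 10.3 TPM in SRT1720 1, 2 and 3, against 34.6, 44.0 and 12.2 TPM in Vehicle 1, 2 and 3. Cebpg, another partner, ran from 3.19 to 11.2 TPM in SRT1720 libraries, against 5.47 to 9.47 TPM in Vehicle libraries. Atf5, a bZIP factor of mitochondrial and proteotoxic stress, ran from 2.41 to 12.2 TPM in SRT1720 libraries, against 5.02 to 15.0 TPM in Vehicle libraries. In all 8 regulators SRT1720 3 was the lowest library, and SRT1720 2 and SRT1720 3 both lay below Vehicle 1 and Vehicle 2.

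**Figure D3:**
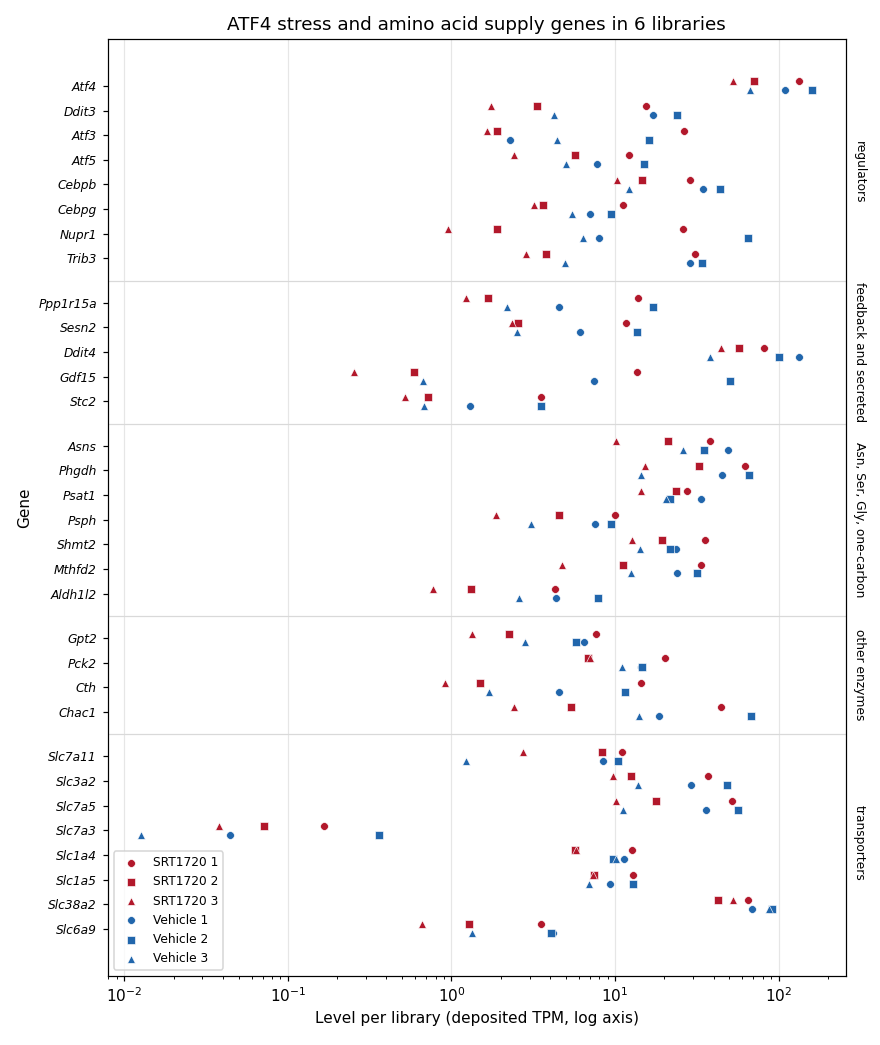
Deposited TPM (log axis) of all 32 genes in each library, by role, with SRT1720 (red) drawn above Vehicle (blue) and symbols for the replicate number. The groups overlap in 31 of the 32, and Slc38a2 is the one in which the SRT1720 libraries, at 42.8 to 65.0 TPM, lie below all Vehicle libraries, at 68.8 to 91.4 TPM.

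The 5 genes of feedback, growth control and secreted stress proteins all had log2 fold changes below 0 (median −0.43) and overlapped between groups. Ppp1r15a encodes the stress-induced subunit that brings a phosphatase to eIF2 and so ends the response. It was at 13.7, 1.67 and 1.23 TPM in SRT1720 1, 2 and 3, against 4.57, 17.0 and 2.19 TPM in Vehicle 1, 2 and 3. Sesn2, a leucine sensor that restrains mTORC1, was at 11.7, 2.56 and 2.36 TPM in SRT1720 1, 2 and 3, against 6.07, 13.6 and 2.53 TPM in Vehicle 1, 2 and 3. SRT1720 2 and SRT1720 3 were within 1 TPM of Vehicle 3 for both genes. Ddit4, also an inhibitor of mTORC1 and a target of the hypoxia response, was at 81.9, 57.4 and 44.4 TPM in SRT1720 1, 2 and 3, against 133, 100.2 and 38.2 TPM in Vehicle 1, 2 and 3. Here Vehicle 1 was the highest and Vehicle 3 the lowest library.

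Gdf15, a secreted hormone of cell stress (chromosome 8 from 70629393 to 70632456), was at 13.5, 0.594 and 0.254 TPM in SRT1720 1, 2 and 3, against 7.40, 50.4 and 0.671 TPM in Vehicle 1, 2 and 3. It spanned 198-fold between its highest and lowest library, the widest span of the list. Its log2 fold change of −1.54 had an SE of 1.41 (limma adjusted p = 0.705). The lowest value rested on 41 recovered reads, the fewest behind any tested gene of the list in a library. Stc2, a secreted glycoprotein, was at 3.52, 0.715 and 0.520 TPM in SRT1720 1, 2 and 3, against 1.30, 3.54 and 0.682 TPM in Vehicle 1, 2 and 3. SRT1720 1 and Vehicle 2 had nearly the same Stc2 level.

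Asns, which makes asparagine, and the enzymes of serine, glycine and one-carbon supply had a median log2 fold change of −0.35, with 6 of 7 below 0. Asns (chromosome 6 from 7675169 to 7693254) was at 38.1, 21.1 and 10.1 TPM in SRT1720 1, 2 and 3, against 49.0, 35.1 and 26.1 TPM in Vehicle 1, 2 and 3. SRT1720 2 and SRT1720 3 lay below every Vehicle library and SRT1720 1 did not. The log2 fold change was −0.78 (SE 0.47, limma adjusted p = 0.547).

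Phgdh, Psat1 and Psph catalyse the steps from glycolysis to serine. Phgdh was at 62.6, 32.6 and 15.3 TPM in SRT1720 1, 2 and 3, against 45.04, 65.9 and 14.4 TPM in Vehicle 1, 2 and 3. SRT1720 3 and Vehicle 3 were lowest and close to each other. Psph ran from 1.87 to 9.93 TPM in SRT1720 libraries, against 3.07 to 9.42 TPM in Vehicle libraries. Psat1 varied least of these 3, from 14.4 to 27.7 TPM in SRT1720 libraries, against 20.6 to 33.4 TPM in Vehicle libraries. Phgdh, Cth and Slc7a11 lie on chromosome 3, whose 407 tested genes had median deviations from their own means of −0.39 in SRT1720 3 and −0.41 in Vehicle 3 and of 0.14 to 0.26 in the other 4 libraries. The part of chromosome 3 in the values of these 3 genes was not tested.

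The mitochondrial folate enzymes differed among themselves. Shmt2, which splits serine into glycine and a one-carbon unit, was at 35.3, 19.2 and 12.7 TPM in SRT1720 1, 2 and 3, against 23.4, 21.7 and 14.2 TPM in Vehicle 1, 2 and 3. Its log2 fold change was 0.08, with a 95% interval from −0.83 to 0.99. Mthfd2, the next enzyme, was at 33.3, 11.1 and 4.72 TPM in SRT1720 1, 2 and 3, against 24.1, 31.9 and 12.5 TPM in Vehicle 1, 2 and 3, and SRT1720 2 and SRT1720 3 lay below all Vehicle libraries. Aldh1l2, a mitochondrial formyltetrahydrofolate dehydrogenase, was at 4.32, 1.32 and 0.776 TPM in SRT1720 1, 2 and 3, against 4.33, 7.87 and 2.599 TPM in Vehicle 1, 2 and 3. SRT1720 1 and Vehicle 1 were almost equal, and the log2 fold change of −0.98 (SE 0.48, limma adjusted p = 0.469) had the smallest p among the enzymes.

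Of the other enzymes, Chac1, which degrades glutathione, had the widest span. It lies on chromosome 2 from 119351229 to 119354381 and was at 44.5, 5.38 and 2.41 TPM in SRT1720 1, 2 and 3, against 18.6, 67.6 and 14.0 TPM in Vehicle 1, 2 and 3. Its log2 fold change was −1.45 (SE 1.02, limma adjusted p = 0.610). Cth, which makes cysteine from cystathionine, was at 14.4, 1.49 and 0.907 TPM in SRT1720 1, 2 and 3, against 4.54, 11.5 and 1.71 TPM in Vehicle 1, 2 and 3. The means of Cth were 5.61 ± 7.64 TPM with SRT1720 and 5.93 ± 5.07 TPM with vehicle (SD, n = 3 each), so the spread within each group was larger than the difference. Pck2, the mitochondrial phosphoenolpyruvate carboxykinase, was at 20.2, 6.82 and 7.03 TPM in SRT1720 1, 2 and 3, against 14.4, 14.6 and 11.02 TPM in Vehicle 1, 2 and 3. The Vehicle libraries lay between SRT1720 1 and the other SRT1720 libraries. Gpt2, a mitochondrial alanine aminotransferase, ran from 1.33 to 7.68 TPM in SRT1720 libraries, against 2.83 to 6.43 TPM in Vehicle libraries, and showed the same arrangement.

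Slc38a2, a sodium-coupled transporter of small neutral amino acids, was the gene of the list whose groups did not overlap. It lies on chromosome 15 from 96687392 to 96699730 and was at 65.0, 42.8 and 52.4 TPM in SRT1720 1, 2 and 3, against 68.8, 91.4 and 87.1 TPM in Vehicle 1, 2 and 3. The gap between the groups, from SRT1720 1 to Vehicle 1, was smaller than the range within either group. The means were 53.4 ± 11.1 TPM with SRT1720 and 82.5 ± 12.0 TPM with vehicle (SD, n = 3 each), 0.647 times as high with SRT1720. Its log2 fold change was −0.63 (SE 0.22, 95% interval −1.14 to −0.11), with an unadjusted limma p of 0.0238 and an adjusted p of 0.353. The exact two-sided permutation test over libraries gave p = 0.1, the smallest that 3 against 3 allows. Vehicle 3 was high for Slc38a2 and low for most of the list.

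Of the other transporters, 6 were tested, and 5 of these had log2 fold changes below 0. Slc3a2, the heavy chain that pairs with several amino acid exchangers, was at 36.9, 12.6 and 9.66 TPM in SRT1720 1, 2 and 3, against 29.0, 48.2 and 13.7 TPM in Vehicle 1, 2 and 3. Slc7a5, its light-chain partner for leucine and other large neutral amino acids, was at 51.8, 17.9 and 10.1 TPM in SRT1720 1, 2 and 3, against 36.2, 56.4 and 11.2 TPM in Vehicle 1, 2 and 3. In both genes SRT1720 1, Vehicle 1 and Vehicle 2 were the high libraries. Slc7a11, the partner of Slc3a2 for cystine, was at 11.1, 8.30 and 2.72 TPM in SRT1720 1, 2 and 3, against 8.46, 10.5 and 1.23 TPM in Vehicle 1, 2 and 3. It differed from its heavy chain in SRT1720 2, which stood with the high libraries, and its log2 fold change was 0.26 (SE 0.71, limma adjusted p = 0.921).

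Slc1a4 and Slc1a5 exchange small neutral amino acids, among them serine. Slc1a4 was at 12.6, 5.71 and 5.75 TPM in SRT1720 1, 2 and 3, against 11.4, 9.73 and 10.2 TPM in Vehicle 1, 2 and 3, so SRT1720 1 lay above and the others below a narrow Vehicle range. Slc1a5 had the narrowest span of the list, 1.86-fold, and a log2 fold change of −0.07 with a 95% interval from −0.77 to 0.62. Slc6a9, a glycine transporter, ran from 0.664 to 3.55 TPM in SRT1720 libraries, against 1.33 to 4.18 TPM in Vehicle libraries. Slc7a3, a transporter of basic amino acids, was below the level for testing, at 0.0379 to 0.167 TPM in SRT1720 libraries, against 0.0127 to 0.360 TPM in Vehicle libraries, and its lowest value rested on 5 recovered reads.

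**Figure D4:**
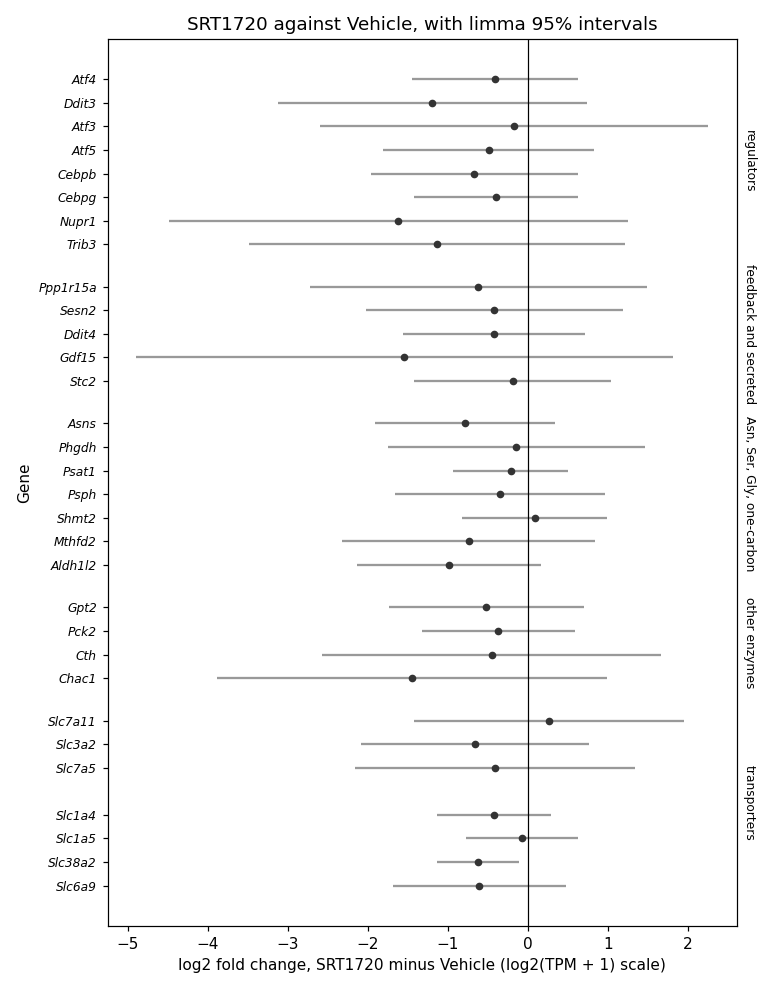
Log2 fold change of each tested gene, SRT1720 minus Vehicle on the log2(TPM + 1) scale, with its 95% limma interval, by role. The points lie below 0 for 29 of 31 genes, from −1.62 for Nupr1 to 0.26 for Slc7a11, and the interval leaves out 0 for Slc38a2 alone.

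The median of the list moved with the libraries used. It was −1.03 without SRT1720 1 and −0.93 without Vehicle 3, with 31 of 31 genes below 0 in each, and −0.12 without SRT1720 3 and −0.26 without Vehicle 2, with 21 of 31 below 0 in each. Without both SRT1720 1 and Vehicle 2, the pair lowest in Krt5, it was −0.71 with 30 of 31 below 0, and without both SRT1720 3 and Vehicle 3, the pair low for chromosome 3, it was −0.49 with 28 of 31 below 0. In each of these fits 0 genes of the list were called by limma. The median and the share below 0 over all genes are not given for these fits. A shift of all genes is therefore not set apart from one of the list.

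The upstream part of the pathway did not share the side of the list. The kinases of eIF2 had a median log2 fold change of 0.19 over 4 genes. A list of 14 genes had a median of 0.20, made up of 8 subunits of eIF2 and of its exchange factor eIF2B, the phosphatase genes Ppp1r15b and Ppp1cc, and Impact, Gcn1, Dele1 and Oma1, which act on the kinases or upstream of them. None of either list was called. Eif2ak1, the kinase that senses heme and mitochondrial stress, was at 2.93, 3.05 and 2.51 TPM in SRT1720 1, 2 and 3, against 1.91, 1.81 and 1.75 TPM in Vehicle 1, 2 and 3. The groups did not overlap, and the log2 fold change was 0.44 (SE 0.13, limma adjusted p = 0.308). Eif2ak2, the kinase of double-stranded RNA, ran from 3.07 to 4.39 TPM in SRT1720 libraries, against 1.74 to 5.35 TPM in Vehicle libraries. Eif2ak3, the kinase of the endoplasmic reticulum, averaged 1.23 ± 0.22 TPM with SRT1720 and 1.54 ± 0.24 TPM with vehicle (SD, n = 3 each). Eif2ak4, the kinase of amino acid shortage, averaged 1.68 ± 0.33 TPM with SRT1720 and 1.58 ± 0.27 TPM with vehicle (SD, n = 3 each). Neither Eif2ak3 nor Eif2ak4 differed beyond the spread between libraries, with 95% intervals of −0.53 to 0.16 and −0.32 to 0.43 (log2).

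Eif2s1, the subunit of eIF2 that is phosphorylated, averaged 13.2 ± 1.96 TPM with SRT1720 and 10.8 ± 1.24 TPM with vehicle (SD, n = 3 each), with overlapping libraries. Ppp1r15b, the constitutive partner of the eIF2 phosphatase, was at 10.2, 5.64 and 4.92 TPM in SRT1720 1, 2 and 3, against 5.01, 9.39 and 4.14 TPM in Vehicle 1, 2 and 3. Its high libraries were again SRT1720 1 and Vehicle 2. Eif2b5, the catalytic subunit of the exchange factor eIF2B, was at 10.6, 14.2 and 11.7 TPM in SRT1720 1, 2 and 3, against 9.58, 6.29 and 6.00 TPM in Vehicle 1, 2 and 3. The groups of Eif2b5 did not overlap, and its log2 fold change was 0.69 (SE 0.22, limma adjusted p = 0.335).

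Of 110 other genes of the pathway, 97 were tested and 0 were called, with 11 at an unadjusted p under 0.05 on the higher and 4 on the lower side, where 7.86% and 4.55% of all genes lay. The SRT1720 libraries lay wholly above the Vehicle libraries in 10 of the 97 and wholly below in 4, near or under the 12.1% and 7.75% of all genes. Against 45.2% of all genes below 0, further ATF4 target genes resembled the list, with 25 of 29 below 0 and a median of −0.41. They include Atf6, Xbp1, Ern1 and Nfe2l2, and whether each is an ATF4 target in these organoids was not tested. All 29 were also chosen with earlier results of these data known, so the likeness is not an independent result. SRT1720 1 exceeded both other SRT1720 libraries in 25 of the 29, against 45.2% of all genes. Ccng2, a cyclin-like gene of growth arrest, was the one of these whose groups did not overlap, at 1.89, 1.34 and 1.22 TPM in SRT1720 1, 2 and 3, against 2.596, 3.75 and 2.69 TPM in Vehicle 1, 2 and 3. The cytosolic aminoacyl tRNA synthetases, many of them ATF4 targets, had a median of −0.11. Of these, 12 of 20 were below 0, against 45.2% of all genes. SRT1720 1 exceeded the other SRT1720 libraries in 17 of 20, also against 45.2% of all genes.

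Enzymes next to those of the list went to either side. Serine, glycine and one-carbon enzymes outside the list had a median log2 fold change of 0.42. Of these, 9 of 12 were above 0, as were 5093 of all 9287 genes tested. Shmt1, the cytosolic counterpart of Shmt2, averaged 4.27 ± 0.57 TPM with SRT1720 and 2.73 ± 0.33 TPM with vehicle (SD, n = 3 each). Tyms, which uses folate to make thymidylate, averaged 3.43 ± 0.97 TPM with SRT1720 and 1.61 ± 0.43 TPM with vehicle (SD, n = 3 each). Neither overlapped between groups, and their limma adjusted p was 0.328 and 0.306. Pycr1, a mitochondrial enzyme of proline synthesis, was at 2.9999, 1.10 and 1.22 TPM in SRT1720 1, 2 and 3, against 5.56, 4.60 and 3.62 TPM in Vehicle 1, 2 and 3. Bcat2, the mitochondrial aminotransferase of branched-chain amino acids, averaged 1.39 ± 0.29 TPM with SRT1720 and 2.55 ± 0.59 TPM with vehicle (SD, n = 3 each). These 2 genes were the lower ones without overlap in a list of 13 whose median was 0.04. Over all genes, 7.75% were lower without overlap. None of the 13 was called, with a lowest limma adjusted p of 0.292.

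In glutathione and methionine metabolism, Gclc and Mat2a lay on opposite sides. Gclc, the catalytic subunit of the first step of glutathione synthesis, was at 8.97, 15.8 and 12.1 TPM in SRT1720 1, 2 and 3, against 27.8, 17.5 and 35.4 TPM in Vehicle 1, 2 and 3. Mat2a, which makes S-adenosylmethionine, was at 6.31, 11.1 and 11.7 TPM in SRT1720 1, 2 and 3, against 4.35, 5.63 and 4.59 TPM in Vehicle 1, 2 and 3. The log2 fold change was −1.05 (SE 0.31) for Gclc and 0.83 (SE 0.25) for Mat2a, with limma adjusted p of 0.322 and 0.317.

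**Figure D5:**
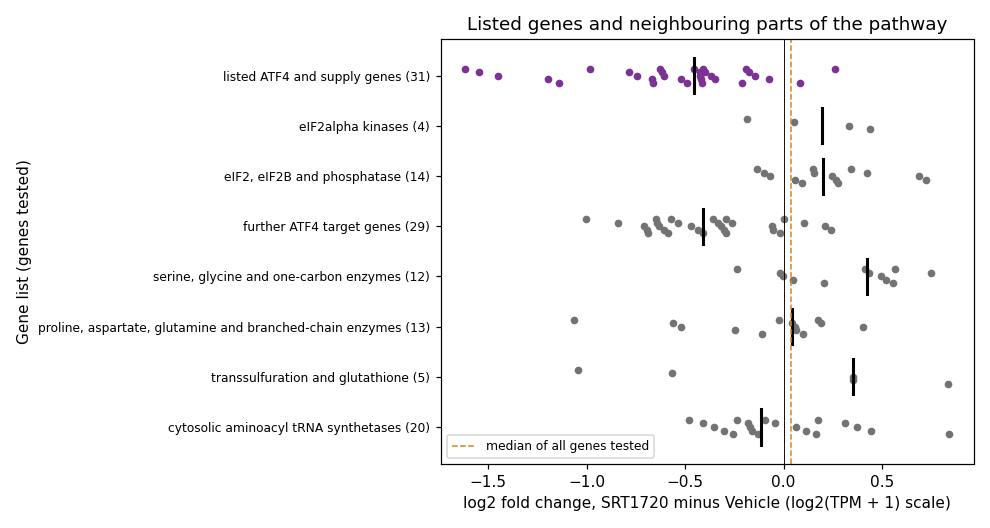
Log2 fold changes (SRT1720 minus Vehicle, log2(TPM + 1) scale) of the 31 tested genes of the list (top, purple) and of other pathway lists (grey), 1 point a gene, with each list's median as a black bar and the median of all genes tested, 0.04, as a dashed line. The list has a median of −0.45 and further ATF4 targets −0.41, while the kinases lie at 0.19 and the list of eIF2, eIF2B, phosphatase and kinase regulators at 0.20.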

How the data were processed

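The authors made and deposited one table of TPM values, normalized by gene length and library depth, with a column per library and 51912 Ensembl gene IDs. The unit is the one in the table's own name, yet the columns sum to between 161231 and 171577, which TPM by definition would not. The submitters' processing notes list STAR 2.6.0 and the build GRCm38 without saying what each did. No source used here gives the counting program or the gene lengths, so comparing levels of different genes depends on unknown lengths. Names and positions come from GENCODE M21 on GRCm38. Use of strand is also not given. A protein-coding gene on the opposite strand overlaps 8 of the 32 genes (Ddit3, Atf5, Cebpb, Ppp1r15a, Shmt2, Aldh1l2, Slc7a5 and Slc6a9). Without use of strand, reads from the shared stretches could not be told apart. Another protein-coding entry, also named Ddit3, overlaps Ddit3 on the same strand, and how reads were divided between them is not given. Phgdh has an annotated pseudogene, Phgdh-ps1, and the handling of reads that map to both is not given.

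Groups came from the sample titles. The test was limma 3.58.1 (R 4.3.3, trended variance) on log2(TPM + 1), over genes averaging 1 TPM or more across the 6 libraries. The Benjamini-Hochberg threshold was 0.05. Its mean estimates were checked on simulated data in which genes varied independently. Error rates were not checked for spread that the genes of a library share, as they do here. The added 1 shrinks fold changes of genes at low levels. The exact permutation test of single genes cannot go below p = 0.1.

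Whole reads were recovered by finding, for each gene, the smallest length that turns its values into whole numbers within 0.01, for 27675 of 27713 IDs above 0. This gave 18196202 to 22759846 reads per library. Within a group, the median chi-square between 2 libraries was 12.0 to 25.1 per gene, so no library was a repeat of another of its own group, and libraries of different groups were not compared in this way.

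The members and lists were chosen with earlier results of these data known. All 32 members are named. Of the other pathway genes, those named are the eIF2 kinases, Eif2s1 and Ppp1r15b, and the 8 with the smallest p among those tested whose groups did not overlap. One listed gene, Pycr3, was not matched to an ID. The alternatives tried were a pseudocount of 0.1, no filter, a mean of at least 5 TPM, leaving out each library or a pair, the replicate block, 3 other scalings, library weights and voom. Python 3.11.15, pandas 2.3.3, numpy 2.4.6 and matplotlib 3.10.9 were used.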

Additional observations from a re-analysis of the deposited data

How the results depend on the processing

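No gene of the list was called under any of 17 other settings, and limma called 0 genes of the whole table in each. The median log2 fold change of the list stayed below 0 throughout, from −0.43 at a mean of at least 5 TPM to −0.77 with library weights when all libraries were used, and from −1.03 to −0.12 when each was left out in turn. The number of its genes below 0 ran from 21 to 31 when each was left out, and the share over all genes is not given for those fits. Of the 31 genes, 19 kept their sign in every setting.

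Leaving out single libraries turned the sign of 12 genes of the list, over ranges of −1.28 to 0.50 for Atf3, −1.49 to 0.077 for Ppp1r15a, −1.05 to 0.10 for Sesn2, −0.69 to 0.21 for Stc2, −0.76 to 0.35 for Phgdh and −0.40 to 0.049 for Psat1. The ranges were −0.83 to 0.13 for Psph, −0.29 to 0.41 for Shmt2, −1.39 to 0.11 for Cth, −0.48 to 0.76 for Slc7a11, −1.05 to 0.091 for Slc7a5 and −0.31 to 0.13 for Slc1a5. Eif2ak4 and Ppp1r15b turned as well, over −0.034 to 0.16 for Eif2ak4 and −0.13 to 0.45 for Ppp1r15b. Atf3 was also at 0.25 without both SRT1720 3 and Vehicle 3, and Shmt2 at −0.079 with library weights and −0.21 without both SRT1720 1 and Vehicle 2. The cause was not tested.

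Members with an unadjusted p under 0.05 numbered 13 without SRT1720 1, 4 without Vehicle 3, 7 with library weights, 7 without both SRT1720 1 and Vehicle 2, 0 without SRT1720 2, SRT1720 3 or Vehicle 2, and 1 otherwise, except with the replicate block. Over all genes that count was 1153 of 9287, and 1010 without SRT1720 1, 1007 without Vehicle 3, 2056 with library weights, 1033 without both SRT1720 1 and Vehicle 2, 2028 of 27713 with no filter, 498 of 3594 at a mean of at least 5 TPM, 682 without both SRT1720 3 and Vehicle 3 and 523 without SRT1720 2. Counts over all genes are not given here for the other settings with 0 or 1, so those values have no background. Slc38a2 kept its sign, at −0.78 to −0.48 with single libraries left out, and its unadjusted limma p was then up to 0.0917.

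The replicate numbers did not pair the libraries: deviations from the group means correlated at −0.20, −0.26 and 0.79 for numbers 1, 2 and 3, and only number 3 correlated best with its own number. SRT1720 1 correlated best with Vehicle 2 (0.72) and SRT1720 2 with Vehicle 1 (0.68), which no label ties together. The main fit took the libraries as unpaired, and no fit by these matches was run. Its intervals and calls hold only for unpaired libraries. With the replicate number as a block, limma called 0 genes, the list's median was −0.45 with 29 below 0, and 3 members of 31 and 1133 of 9287 genes had an unadjusted p under 0.05. With 3 libraries a group and this spread, a 2-fold lower level lay inside most intervals.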

Other observations

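Fgf21 and Adm2, both secreted factors among the further ATF4 targets, were picked after their values were seen. Fgf21, a stress hormone, was at 5.74, 0.131 and 0.0954 TPM in SRT1720 1, 2 and 3, against 1.39, 14.6 and 0.286 TPM in Vehicle 1, 2 and 3. It was highest in Vehicle 2 and then in SRT1720 1, as was Gdf15. Adm2, a peptide of the adrenomedullin family, was at 7.64, 0 and 0 TPM in SRT1720 1, 2 and 3, against 0.195, 4.60 and 0.0372 TPM in Vehicle 1, 2 and 3. Reads of Adm2 were thus found mainly in SRT1720 1 and Vehicle 2, 1 library of each group. Neither was called by limma, with adjusted p of 0.811 for Fgf21 and 0.979 for Adm2.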
